A study of Rattus norvegicus with 12 samples.

Results

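The ER translocon and signal peptidase genes were 10 genes of the 30562 Ensembl genes in the counts, and each matched 1 row by its symbol. They encode the Sec61 channel (Sec61a1, Sec61b and Sec61g), the translocon-associated protein complex, or TRAP (Ssr1, Ssr2, Ssr3 and Ssr4), and the accessory subunits of the signal peptidase (Spcs1, Spcs2 and Spcs3). The members had been chosen by their fold changes between the same libraries that are described here, with the small subunits to be set against the large ones. Their own fold changes are therefore given as descriptions without a test, and the calls are counted beside those over all genes.

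The libraries were bulk RNA-seq of wild-type oligodendrocyte precursor cells (OPCs), the dividing glial cells that give rise to myelinating oligodendrocytes. The cells were cultured from the cerebral cortex of newborn Sprague-Dawley rats with the growth factors FGF-2 and PDGF-AA. Mild-hypo-OPCs (6 libraries) were kept at a fraction of inspiratory oxygen (FiO2) of 5%, for 6 hours by the labels and for 6 days by the study's methods. Standard OPCs (6 libraries) were kept in room air. The labels do not say that the libraries came from separate cultures, so the p-values measure the spread between these libraries, which may be technical. The 6 libraries of each group are more than the biological replicates named for this experiment in the study, so some may share a culture, and SDs and p-values would then be too small.

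Proteins that are secreted or inserted into membranes enter the endoplasmic reticulum (ER) through the Sec61 channel. The signal recognition particle brings the ribosome to the membrane, the alpha subunit Sec61a1 forms the pore, the small tail-anchored beta and gamma subunits Sec61b and Sec61g flank it, and TRAP sits beside the channel and assists some substrates. The signal peptidase then removes the signal sequence, with Sec11a or Sec11c as its catalytic subunit and the Spcs proteins around it. Oligodendrocytes make large amounts of membrane protein for myelin and pass much of it through this route.

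Total counts spanned 4111669 to 9022324 over the mild-hypo-OPC libraries and 1356079 to 2797513 over the standard OPC libraries, so depth differed together with the condition and its part in the results cannot be told apart from that of the oxygen level. The share of counts in the ribosomal RNA genes Rn18s, Rn28s and Rn45s had a median of 13.3% (highest 17.3%) with mild hypoxia and of 22.0% (16.8% to 26.3%) in room air. The 5 OPC markers (Pdgfra, Cspg4, Olig1, Olig2 and Sox10) summed to between 1768 and 1906 CPM (counts scaled to a common library total) with mild hypoxia and between 1550 and 1822 CPM in room air, with 0 of 5 called by edgeR. The summed levels of the 4 oligodendrocyte markers (10082 to 11328 CPM against 6885 to 10079 CPM), the 4 neuronal markers (120 to 136 CPM against 66.0 to 106 CPM) and the 5 microglial markers (24.3 to 32.3 CPM against 9.20 to 23.9 CPM) lay above those of standard OPCs without overlap. By edgeR 2 of 4 tested oligodendrocyte markers, 1 of 2 neuronal and 1 of 1 microglial were called higher, beside 7.00% of all genes tested. The largest parts of the sums came from Mbp, which was not called, Tubb3 (98.9 against 59.4 CPM on average) and Csf1r (18.1 against 11.2 CPM). In these lists only Rbfox3 (2.67 against 3.36 CPM) and Aif1 (1.87 against 3.13 CPM) were lower on average with mild hypoxia. The sums of the 4 astrocyte markers, 2 of which were called higher, overlapped (558 to 673 CPM against 487 to 567 CPM). Endothelial markers did not exceed 0.556 CPM in any library, and mesenchymal markers did not exceed 2.31 CPM. The part of other cells in the values below was not tested, and in bulk RNA fewer cells of a type and less RNA per cell cannot be told apart.

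The upstream sequences of the 3 members with the largest decreases and of Ssr1 are printed because these members had the lowest log2 fold changes and the highest one among the 9 matched members. They are RefSeq sequences of the GRCr8 assembly, from 250 bases before to 50 bases after the annotated start, and were matched by symbol for 9 of the 10 members, all but Sec61a1. The counts themselves were made on another assembly, mRatBN7.2. Capitals mark ACGTG or CACGT, a form of the hypoxia response element core, and CCGGAA or TTCCGG, a core bound by ETS factors, on either strand and with overlapping matches merged.
Sec61g, chr14:95119409-95119708, minus strand: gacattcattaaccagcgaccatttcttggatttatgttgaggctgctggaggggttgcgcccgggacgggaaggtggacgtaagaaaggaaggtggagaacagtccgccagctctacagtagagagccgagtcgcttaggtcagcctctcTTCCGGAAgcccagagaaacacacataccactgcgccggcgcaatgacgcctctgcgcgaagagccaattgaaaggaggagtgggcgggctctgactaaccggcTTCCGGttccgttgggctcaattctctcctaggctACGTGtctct
Ssr4, chrX:156675408-156675707, plus strand: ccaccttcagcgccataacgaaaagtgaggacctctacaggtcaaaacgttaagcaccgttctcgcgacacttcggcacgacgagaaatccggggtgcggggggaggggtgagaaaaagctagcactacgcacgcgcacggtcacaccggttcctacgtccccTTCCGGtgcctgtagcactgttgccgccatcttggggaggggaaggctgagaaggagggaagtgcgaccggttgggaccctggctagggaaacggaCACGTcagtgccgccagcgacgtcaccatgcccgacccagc
Ssr2, chr2:176345867-176346166, plus strand: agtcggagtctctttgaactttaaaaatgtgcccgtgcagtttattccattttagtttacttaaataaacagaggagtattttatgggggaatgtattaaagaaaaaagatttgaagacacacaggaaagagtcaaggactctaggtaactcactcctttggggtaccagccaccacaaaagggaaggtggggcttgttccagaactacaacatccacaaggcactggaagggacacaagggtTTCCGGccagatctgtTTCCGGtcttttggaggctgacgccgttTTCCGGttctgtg
Ssr1, chr17:27039043-27039342, plus strand: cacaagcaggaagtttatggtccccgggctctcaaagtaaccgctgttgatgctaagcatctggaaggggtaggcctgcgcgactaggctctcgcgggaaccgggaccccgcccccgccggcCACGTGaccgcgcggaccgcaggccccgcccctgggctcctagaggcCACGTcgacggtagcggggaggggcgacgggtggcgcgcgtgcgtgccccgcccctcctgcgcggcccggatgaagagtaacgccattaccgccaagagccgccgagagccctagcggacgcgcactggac

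In these windows the ETS core was found in Sec61g, Ssr2 and Ssr4 and not in Ssr1, and ACGTG was found in Sec61g, Ssr4 and Ssr1. Over all 9 members, 5 held ACGTG (Sec61g, Ssr1, Ssr3, Ssr4 and Spcs3), against 19.3% of 33469 promoters in the table. The ETS core was also found in 5 members (Sec61g, Ssr2, Ssr4, Spcs1 and Spcs3), against 15.0% of promoters. The CCAAT box, searched as CCAAT or ATTGG, was found in 4 members (Sec61g, Ssr3, Spcs2 and Spcs3), against 37.5% of promoters. The table also holds genes of other kinds than protein-coding ones, and a match of letters is not a binding site.

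All 10 members passed the filter of a CPM above 10 in at least 1 library, which left 8938 genes. In edgeR's quasi-likelihood test with Benjamini-Hochberg adjustment over these genes, 4 members were called lower in mild-hypo-OPCs (Sec61g, Ssr4, Ssr2 and Spcs1), where 17.0% of all genes tested were called lower. Only Sec61a1 was called higher, where 7.00% of all genes were. The median log2 fold change was -0.28 over the 10 members and 0.00 over all genes. In CPM scaled by TMM factors the 2 groups of libraries did not overlap in Sec61g and Ssr4, which were lower (5.40% of all genes), and in Sec61a1, which was higher (2.94% of all genes). Since the members were proposed from this contrast, nothing is read from these counts.

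**Figure D1:**
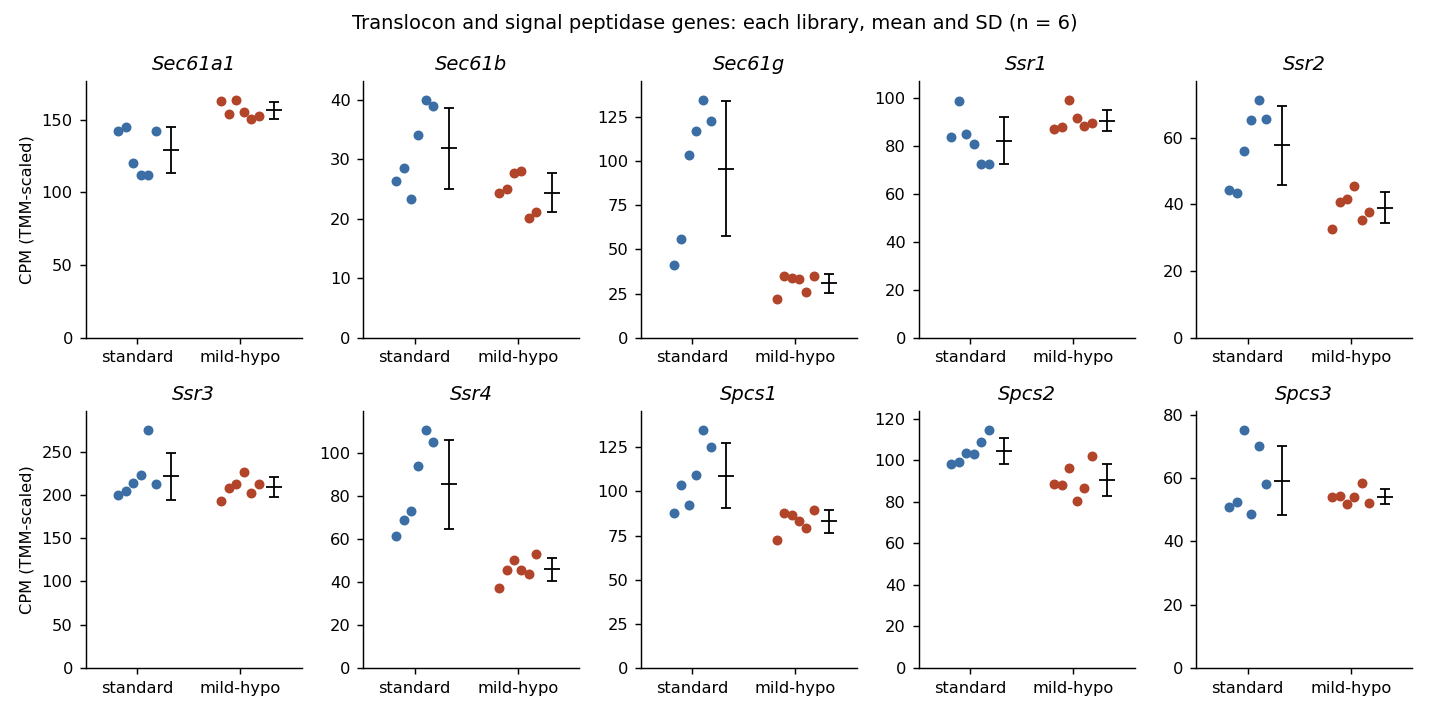
CPM scaled by TMM factors (y axis, from 0) of the 10 members in each of 6 standard OPC libraries (blue) and 6 mild-hypo-OPC libraries (red), with the mean and SD in black. Sec61g and Ssr4 lay lower in all mild-hypo-OPC libraries and Sec61a1 higher, and the standard OPC libraries were spread more widely in Sec61g, from 40.9 to 135 CPM.

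The 3 subunits of the Sec61 channel went different ways. Sec61g (ENSRNOG00000005203), the gamma subunit, had 21.9, 33.6 and 35.0 CPM as the lowest, median and highest of the 6 mild-hypo-OPC libraries and 40.9, 110 and 135 CPM in standard OPCs. The means were 30.8 ± 5.54 CPM with mild hypoxia and 95.8 ± 38.3 CPM in room air (SD over 6 libraries each), and the log2 fold change was -1.61 (standard error 0.22), or 3.04-fold lower. Standard OPC replicates 1 and 2, at 40.9 and 56.0 CPM, lay closest to the mild-hypo-OPC libraries, and the other 4 lay at 103 CPM or above.

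Sec61a1 (ENSRNOG00000013743), the pore-forming alpha subunit, had 150, 155 and 164 CPM (lowest, median and highest) in mild-hypo-OPCs and 112, 131 and 145 CPM in standard OPCs, and the log2 fold change was 0.27 (standard error 0.08). The direction was thus opposite to that of Sec61g in the same libraries. Sec61b (ENSRNOG00000006345), the beta subunit, had 20.1, 24.7 and 28.1 CPM in mild-hypo-OPCs and 23.4, 31.3 and 40.0 CPM in standard OPCs. These ranges overlapped, and its log2 fold change of -0.35 (standard error 0.14) was not called and was 0.07 with scaling by library size only.

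Among the TRAP genes the values ran from a clear decrease to none. Ssr4 (ENSRNOG00000053172), the delta subunit, had 37.2, 45.6 and 52.9 CPM in mild-hypo-OPCs and 61.2, 83.4 and 111 CPM in standard OPCs, and the log2 fold change was -0.87 (standard error 0.13). All of its mild-hypo-OPC libraries lay under all standard OPC libraries. Ssr2 (ENSRNOG00000019940), the beta subunit, had 32.8, 39.2 and 45.5 CPM against 43.3, 60.8 and 71.3 CPM, a log2 fold change of -0.54 (standard error 0.12), and its ranges overlapped by a narrow margin. Ssr3 (ENSRNOG00000011148), the gamma subunit, had 193, 210 and 227 CPM against 199, 214 and 275 CPM, with a log2 fold change of -0.08 (standard error 0.08) that was 0.36 with library size only. Ssr1 (ENSRNOG00000014165), the alpha subunit and the large one of the complex, had 87.0, 88.9 and 99.2 CPM against 72.5, 82.4 and 98.8 CPM, with a log2 fold change of 0.13 (standard error 0.08). Neither Ssr3 nor Ssr1 was called.

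The signal peptidase accessory subunits differed least. Spcs1 (ENSRNOG00000018075), the smallest subunit of the enzyme, had 72.2, 85.1 and 89.2 CPM in mild-hypo-OPCs and 87.6, 107 and 135 CPM in standard OPCs, and the log2 fold change was -0.38 (standard error 0.10), which was called, and 0.06 with library size only. Spcs2 (ENSRNOG00000018164) had 80.3, 88.3 and 102 CPM against 98.3, 103 and 115 CPM. Spcs3 (ENSRNOG00000038933), needed for the activity of the enzyme, had 51.7, 53.9 and 58.4 CPM against 48.8, 55.1 and 75.1 CPM. The log2 fold changes of -0.21 (standard error 0.08) for Spcs2 and -0.13 (standard error 0.10) for Spcs3 were not called and turned to 0.23 and 0.31 with library size only. In all 3 genes the ranges of the groups overlapped.

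Scaling set the direction of several of these values. With library size only, all genes shifted to a median of 0.43 on the log2 scale, and 2 members were called lower (Sec61g and Ssr4) and 5 higher (Sec61a1, Ssr1, Ssr3, Spcs2 and Spcs3), where 4.53% of all genes were called lower and 61.7% higher. Relative to that median, Sec61g was at -1.59, Ssr4 at -0.87, Ssr2 at -0.54, Spcs1 at -0.37, Sec61b at -0.35 and Sec61a1 at 0.28, close to the values with TMM factors. A change of scaling factors shifts all genes by nearly the same amount, so this closeness follows from the calculation. Sec61g, Ssr4 and Ssr2 stayed below 0, and Sec61a1 and Ssr1 above 0, under the TMM, upper-quartile and library size scalings.

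A ratio of 2 genes within a library does not depend on the scaling factors apart from the small prior count, and shows unequal change only. The log2 ratio of Sec61g to Sec61a1 had a lowest, median and highest value of -2.87, -2.23 and -2.11 in mild-hypo-OPCs and -1.79, -0.21 and 0.26 in standard OPCs, a difference of means of -1.80. These groups did not overlap at full depth. After thinning to the smallest total, done as a single random draw, mild-hypo-OPC replicates 3 and 6 (-1.42 and -1.77) lay above standard OPC replicate 1 (-1.94). For Sec61b to Sec61a1 the values were -2.87, -2.66 and -2.45 against -2.41, -2.09 and -1.47. Here the groups also did not overlap at full depth, but by a narrow margin and with 37 to 69 Sec61b counts in standard OPC libraries. In TRAP the ratio of Ssr4 to Ssr1 was -1.21, -0.99 and -0.75 in mild-hypo-OPCs and -0.52, -0.01 and 0.60 in standard OPCs, again without overlap at full depth. The ratios of Sec61b and Ssr4 were not computed after thinning. The ratios of Ssr2 to Ssr1 and Ssr3 to Ssr1 overlapped between the groups, with differences of -0.69 and -0.22. In the signal peptidase the ratios to Spcs2 differed least, by -0.16 for Spcs1 and 0.10 for Spcs3, and overlapped.

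**Figure D2:**
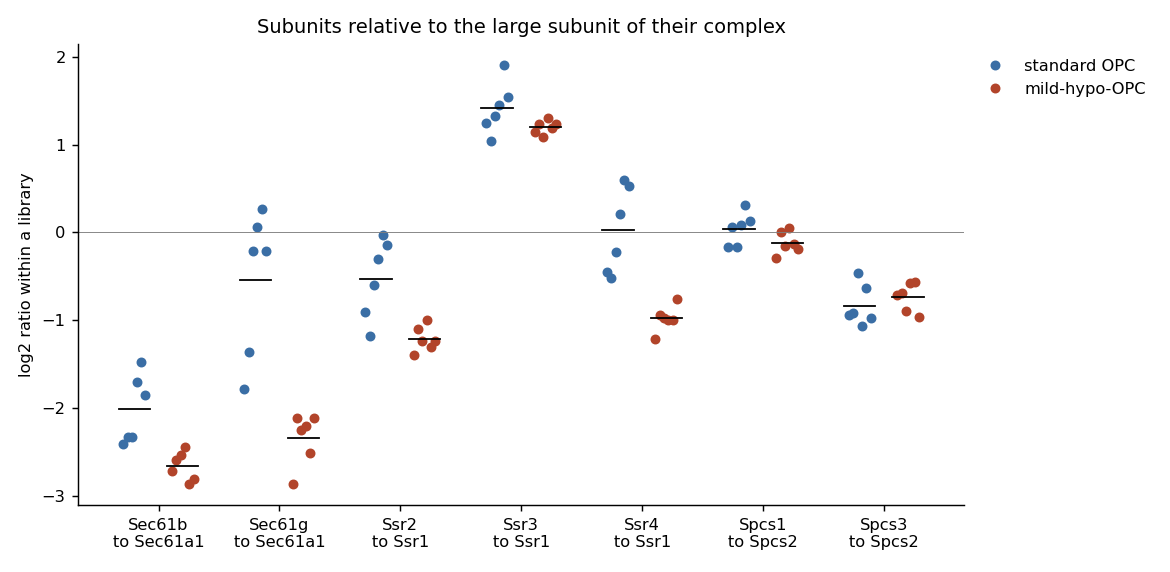
Log2 ratio of each subunit to the large subunit of its complex within a library (y axis), for 6 standard OPC libraries (blue) and 6 mild-hypo-OPC libraries (red), with the mean as a black line. At full depth the groups did not overlap for Sec61b, Sec61g and Ssr4 and overlapped for Ssr2, Ssr3, Spcs1 and Spcs3.

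The small subunits Sec61b, Sec61g and Spcs1, assigned from general knowledge of the proteins, were then set against the other 7 members as the mean log2 CPM of the small minus that of the large. It spanned -1.20 to -0.94 (median -1.02) with mild hypoxia and -0.89 to -0.21 (median -0.47) in room air. The difference of means was -0.55, and the groups did not overlap. After all libraries were thinned to the smallest total, in the same random draw, they did, with mild-hypo-OPC replicate 6 at -0.61 and standard OPC replicate 1 at -0.81. Taken as a median over the genes the difference was -1.33. On average Sec61g (30.8 and 95.8 CPM) lay between Sec61b (24.4 and 31.9 CPM) and Spcs1 (83.1 and 109 CPM), so the small-set median largely followed Sec61g. Sec61b (-0.35) and Spcs1 (-0.38) changed less than Ssr4 (-0.87) and Ssr2 (-0.54), which were counted with the large members. Within TRAP, Ssr4 and Ssr2 were called lower and Ssr3, of a similar size, was not called.

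Levels were also set against depth inside each group. Deposited Sec61g counts were 156 to 212 with mild hypoxia and 106 to 202 in room air, and so overlapped although the totals did not. The deepest library, mild-hypo-OPC replicate 1, had the lowest Sec61g level (21.9 CPM), and the deepest standard OPC library, replicate 1, had the lowest of its group (40.9 CPM). Over the 6 standard OPC libraries, the log2 CPM of Sec61g and log2 total count had a Pearson's r of -0.85 (exact permutation test, two-sided, p = 0.0181, adjusted p = 0.231) and a Spearman's rho of -0.77 (exact p = 0.103, adjusted p = 0.389). Without the 2 libraries farthest from the median depth, r was -0.78. For Ssr4, r was -0.89 (exact permutation p = 0.0431, adjusted p = 0.231) with rho -0.77 (exact p = 0.103, adjusted p = 0.389), and r was -0.98 over the 4 libraries left. For Ssr2, r was -0.86 (exact permutation p = 0.0486, adjusted p = 0.231) with rho -0.71 (exact p = 0.136, adjusted p = 0.389), and r was -0.86 over the 4 libraries left. In standard OPCs Sec61b, Spcs1 and Spcs2 had r of -0.78, -0.77 and -0.67 (exact permutation adjusted p = 0.231, 0.231 and 0.241). Those of Ssr3, Ssr1 and Spcs3 were -0.53, 0.59 and 0.02 (exact permutation adjusted p = 0.381, 0.323 and 0.961).

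In mild-hypo-OPCs the r of Sec61g was -0.78 (exact permutation p = 0.0736, adjusted p = 0.231), with rho -0.49 (exact p = 0.356, adjusted p = 0.547), and it was 0.00 over the 4 libraries left, so that it rested on the libraries left out. The same held for Ssr4, Ssr2 and Spcs1 in mild-hypo-OPCs, where r went from -0.71, -0.75 and -0.77 to 0.05, 0.53 and -0.11 over the 4 libraries left (exact permutation adjusted p = 0.241, 0.231 and 0.231 over all 6). It also held for Ssr3, which was not called, with r of -0.82 (exact permutation adjusted p = 0.231) and 0.20 over the 4 left. In mild-hypo-OPCs the r of Sec61b, Ssr1, Spcs2 and Spcs3 lay between -0.24 and 0.12. Sec61a1 went the other way in both groups, with r of 0.67 and 0.56 (exact permutation adjusted p = 0.231 and 0.295). Over the 4 libraries left its r was 0.88 in mild-hypo-OPCs and 0.14 in standard OPCs. None of the 20 relations (10 members in 2 groups) passed the adjustment. Over all genes tested the median r was 0.00 in mild-hypo-OPCs and -0.01 in standard OPCs, and 3.96% of genes had a lower r than Sec61g in standard OPCs. With log2 total count as a covariate in edgeR, 0 of the 10 members were called, and 0 at an unadjusted p under 0.05, where 0.481% of all genes were called lower. In that fit Sec61g had a log2 fold change of -0.13 and Ssr4 of -0.08, and Ssr2 (0.14), Ssr3 (0.21) and Spcs1 (0.12) were above 0. Since the totals of the groups did not overlap, this fit could hardly separate condition from depth. Its missing calls and changed signs decide nothing about either.

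**Figure D3:**
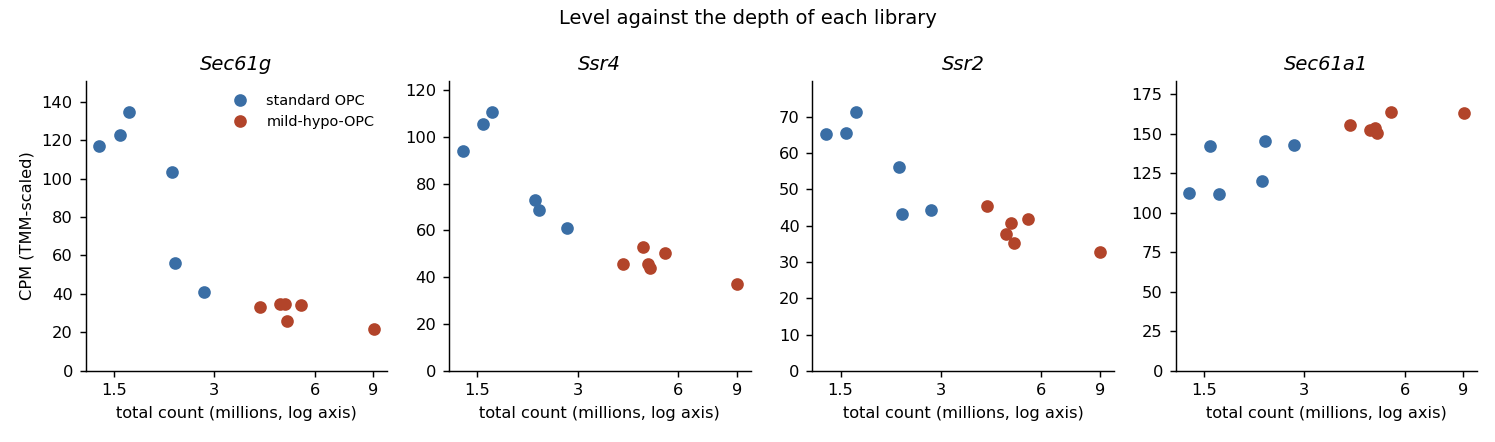
CPM scaled by TMM factors (y axis, from 0) of Sec61g, Ssr4, Ssr2 and Sec61a1 against the total count of each library (x axis, log scale), standard OPCs in blue and mild-hypo-OPCs in red. The 3 shallowest standard OPC libraries had the highest Ssr4 and Ssr2 levels, and the deepest mild-hypo-OPC library had the lowest levels of Sec61g, Ssr4 and Ssr2.

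The genes whose levels were most like those of Sec61g included several ribosomal protein genes. Over the log2 CPM of the 12 libraries, genes with a Pearson's r among the 5 highest included B3galt4 (0.995), Rps19 (0.995), Rps27a (0.994) and Rpl19 (0.994). Over deviations from the group means, which leave out the difference between the groups, they included B3galt4 (0.988), H3f3b (0.987), Rps19 (0.984) and Rpl19 (0.984). Among the members, the deviations of Ssr2 (0.92), Ssr4 (0.89) and Spcs1 (0.77) followed those of Sec61g most closely, and those of Sec61a1 (-0.64) and Ssr1 (-0.51) ran against it. All values come from the same 12 libraries, which share their depth and scaling, and are descriptions. Ribosomal protein genes have many pseudogene copies with which they can share reads.

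Reads of Sec61g may also be shared with copies. RefSeq lists 8 pseudogenes named after Sec61g and 1 each after Spcs2 and Spcs3, and none after the other members. Of these only Sec61g-ps4 has a row of that name in the counts, with 0 counts in all 12 libraries.

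Over all genes with a known genomic span in RefSeq (96.2% of those tested), the fold change went with span. In the quintile of genes with the shortest span the median log2 fold change was -0.26, with 37.3% called lower and 4.13% higher, and in the quintile with the longest it was 0.06, with 5.52% lower and 7.79% higher. Sec61b, Sec61g, Spcs1, Spcs3 and Ssr4 lay in the shortest quintile, Sec61a1 and Ssr2 in the next, and Spcs2, Ssr1 and Ssr3 in the middle one. Within the shortest quintile, Sec61g (-1.61) and Ssr4 (-0.87) lay under the lower quartile of -0.59, whereas Spcs1, Sec61b and Spcs3 lay within the interquartile range. In the next quintile Ssr2 (-0.54) lay under the lower quartile of -0.32, and Sec61a1 (0.27) above the upper quartile of 0.14. In the middle one Spcs2 (-0.21) lay under the lower quartile of -0.16, and Ssr1 and Ssr3 lay within the range. When the trend of each library on span was removed, which was tried after seeing the data, Sec61g was at -1.41, Ssr4 at -0.62 and Ssr2 at -0.41 and all were called, Sec61a1 was at 0.33 and was called, and Spcs1 was at 0.03 and was not. Span counts introns, and the length of the transcripts was not analysed here.

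**Figure D4:**
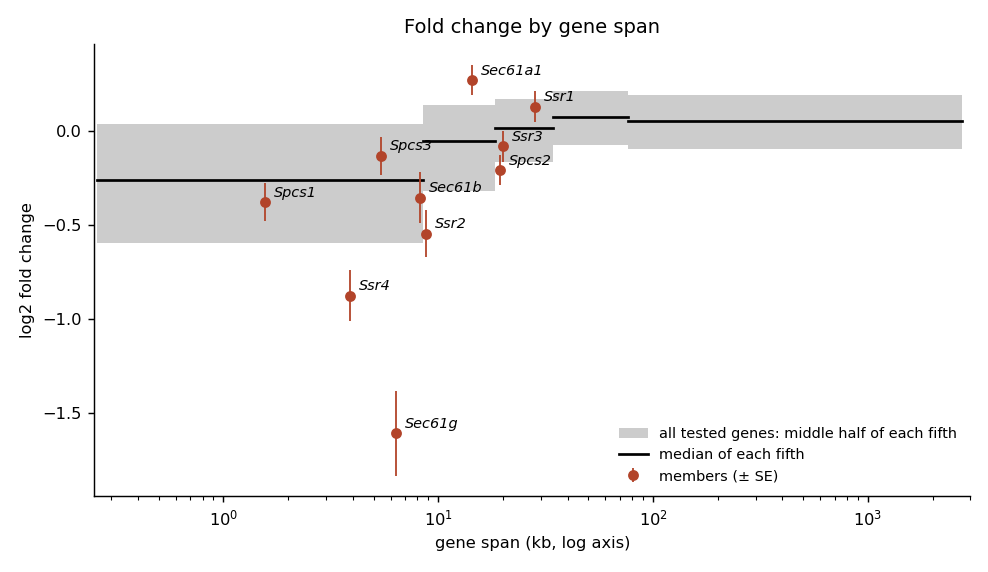
Log2 fold change in mild-hypo-OPCs relative to standard OPCs (y axis) against gene span in kilobases (x axis, log scale), for the 10 members (red, with the standard error) and for all tested genes in quintiles of span (black line, median, and grey, interquartile range). Sec61g and Ssr4 lay below the grey band of the shortest quintile. Ssr2 and Spcs2 lay below the bands of their own quintiles, and Sec61a1 above its own.

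The other genes of ER targeting, translocation and membrane insertion formed a list of 52 genes grouped by function, of which 46 matched a row and 43 were tested. Tram2, Emc9 and Wdr83os had too few counts to pass the filter, and Tram1l1, Srp54, Srp72, Srprb, Ost4 and Tmem258 matched no row by these symbols. In edgeR's quasi-likelihood test 15 were called lower and 2 higher (34.9% and 4.65% of those tested), beside the 17.0% and 7.00% over all genes, and their median log2 fold change was -0.12. The groups of libraries did not overlap for 2 of the 43 that were lower, Srp19 and Emc7 (5.40% of all genes tested). They also did not overlap for 1 that was higher, Nomo1 (2.94% of all genes tested). With library size only, 0 of the 43 were called lower by edgeR (0 at an unadjusted p under 0.05) and 25 higher. In that fit 4.53% of all genes were called lower and 61.7% higher. Limma-voom called 15 lower and DESeq2 16.

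At the ribosome-targeting step, 3 of the 6 tested genes of the signal recognition particle and its receptor were called lower by edgeR. Over all genes tested 17.0% were. Srp19, which helps assemble the particle on its RNA, averaged 34.8 ± 3.11 CPM with mild hypoxia and 54.1 ± 9.98 CPM in room air (SD over 6 libraries), and its log2 fold change was -0.63 (standard error 0.11, edgeR adjusted p = 0.000462). Srp9 and Srp14, which pair in the domain that slows translation, were at -0.71 and -0.55 (edgeR adjusted p = 0.00182 and 0.0209). The receptor subunit Srpra, with the highest CPM of the group before any correction for length, was at 0.06 (edgeR adjusted p = 0.568). Of the partners of the channel 0 of 4 were called by edgeR, limma-voom or DESeq2 (0 lower and 1 higher at an unadjusted p under 0.05 in each), among them Tram1 at 0.05 (edgeR adjusted p = 0.750).

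The catalytic signal peptidase subunit Sec11c fell by 0.59 on the log2 scale (standard error 0.15, edgeR adjusted p = 0.00686), with 75.4 ± 12.4 CPM against 115 ± 29.7 CPM in room air (SD over 6 libraries). Its alternative Sec11a was not called (-0.29, edgeR adjusted p = 0.156).

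In the oligosaccharyltransferase, which adds glycans to the entering chain, 3 of 10 tested genes were called lower by edgeR and 1 higher. Over all genes tested 17.0% were called lower and 7.00% higher. Krtcap2 and Ostc, small subunits of the form that works at the channel, were at -0.55 and -0.51 (edgeR adjusted p = 0.0132 and 0.0191). Tusc3 and Magt1, alternative subunits of the other form, were called in opposite directions (-0.33 and 0.36, edgeR adjusted p = 0.0328 and 0.0468), and both calls depended on single libraries, while Tusc3 was at 0.11 with library size only. Rpn1 was at -0.12 (edgeR adjusted p = 0.284).

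The ER membrane protein complex inserts membrane segments that Sec61 handles poorly. By edgeR 4 of its 9 tested genes were called lower and 0 higher, beside 17.0% and 7.00% of all genes tested. By limma-voom and DESeq2 0 were called higher too (1 at an unadjusted p under 0.05 in each, as in edgeR). Emc6, Emc4 and Emc7 were at -0.67, -0.66 and -0.56 (edgeR adjusted p = 0.00184, 0.000982 and 0.00151), and Emc10 at 0.06 (edgeR adjusted p = 0.672). Sec61b and Sec61g themselves resemble tail-anchored proteins in having a single membrane segment near the end. Beside 17.0% of all genes tested, 2 of 7 genes in the route for such proteins were called lower by edgeR. These were Get4 (-0.47, edgeR adjusted p = 0.0132) and the ATPase Get3 (-0.26, edgeR adjusted p = 0.0367, and 0.17 with library size only), whereas Bag6 was at 0.19 (edgeR adjusted p = 0.125). Of the multipass translocon genes, Tmem147 and Tmco1 were lower (-0.66 and -0.62, edgeR adjusted p = 0.00871 and 0.00550) and Nomo1 higher (0.34, edgeR adjusted p = 0.00864). Ccdc47 was at 0.21 (edgeR adjusted p = 0.0973). Tmem147 and Nomo1, partners in one complex, thus moved in opposite directions with TMM factors.

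**Figure D5:**
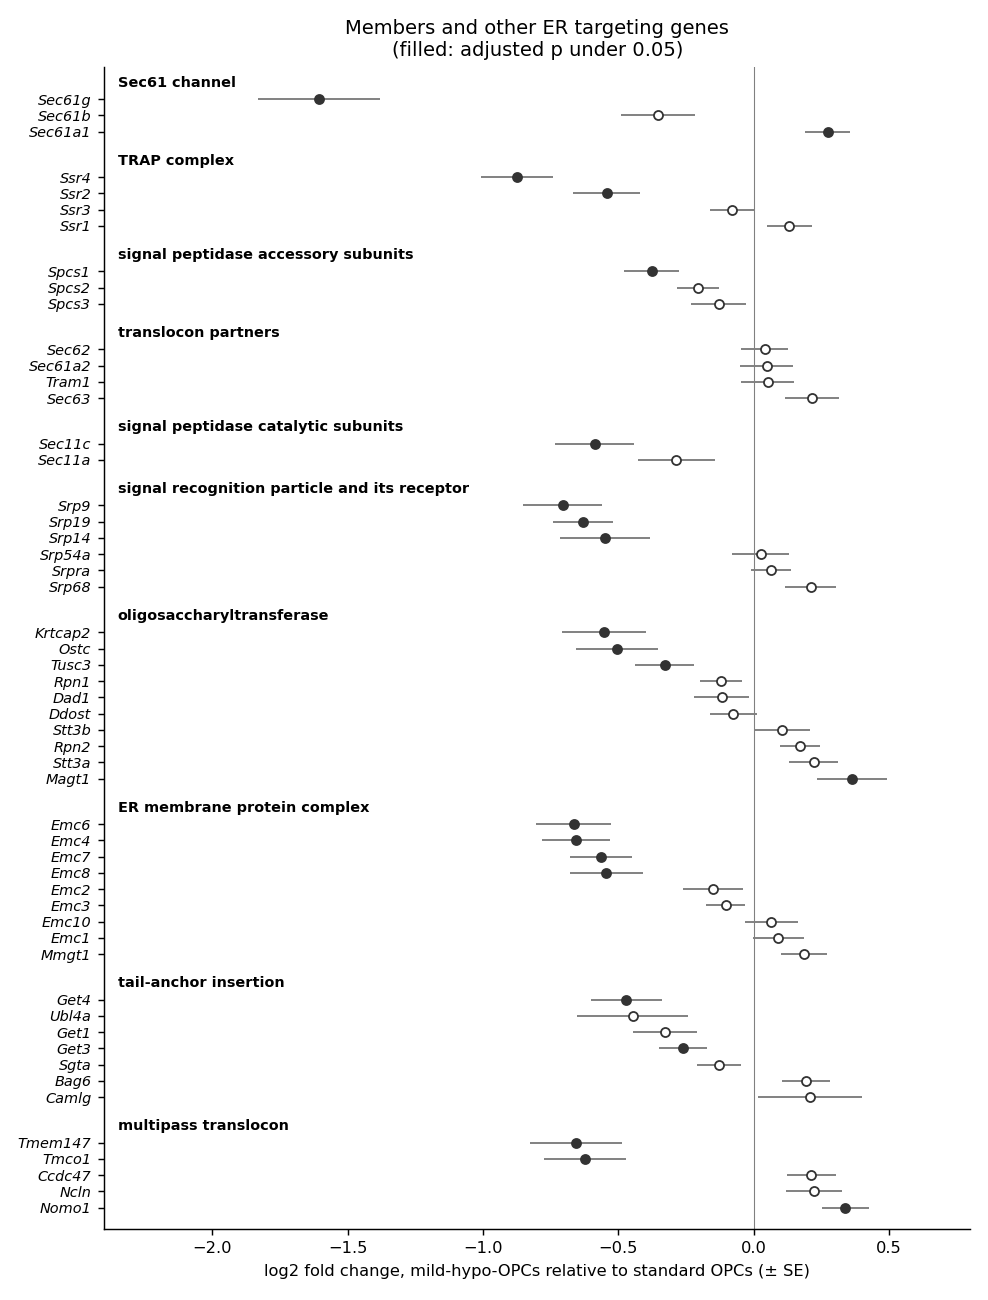
Log2 fold change in mild-hypo-OPCs relative to standard OPCs with TMM factors (x axis, with the standard error) of the 10 members and the 43 tested genes of the ER targeting list, grouped by complex (filled, edgeR adjusted p under 0.05). Genes called in both directions occurred in the Sec61 channel, the oligosaccharyltransferase and the multipass translocon. With library size only the median of all genes moved to 0.43 and 5 members with values below 0 turned positive. In that fit 0 of the 43 listed genes were called lower, where 4.53% of all genes were.

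For calls near the threshold single libraries mattered. Over the 12 fits that left out 1 library each, Tusc3 lost its call in 9, Magt1 in 8, Get3 in 7, Ostc in 5 and Srp14 in 4 (highest edgeR adjusted p between 0.0587 for Ostc and 0.121 for Get3), and the other called pathway genes named here kept theirs. Sec61b was called in 2 of these fits, without standard OPC replicate 1 or 3.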

How the data were processed

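Gene counts of 12 bulk RNA-seq libraries (6 mild-hypo-OPC, 6 standard OPC) were analysed. Per the labels and the study's methods, the authors trimmed the reads with Trimmomatic 0.36, checked them with FastQC 0.11.9, aligned them to mRatBN7.2 using STAR 2.7.9a, and estimated gene levels using RSEM 1.3.3 from strand-specific libraries. The deposited values were whole, unnormalized counts of each Ensembl gene, and how they were made whole is not given in the sources used here. Groups followed the deposited titles, and 0 columns were left unused.

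The filter required over 10 CPM in 1 or more libraries. After TMM scaling, edgeR 4.0.16 (glmQLFit, glmQLFTest, R 4.3.3) tested condition alone, and p-values were adjusted by Benjamini-Hochberg with a threshold of 0.05. Standard errors follow from the F statistic. Levels per library used TMM-scaled CPM, with a prior count of 2 on the log2 scale. Relations with depth used two-sided exact permutation tests (SciPy 1.17.1). For Spearman's rho over 6 libraries the smallest possible p was 0.00278. Total counts bound the precision. Alternatives were limma-voom (limma 3.58.1), DESeq2 1.42.0, other scalings, filters and terms, thinning (a single random draw), and leaving out each library. No 2 libraries of a group agreed within counting noise (chi-square per degree of freedom at least 3.40). Methods were tested on simulated counts.

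Members and lists were chosen with earlier results of these data known. Of the list, the up to 3 called genes per direction and group with the largest change and the gene with the highest mean CPM were named, and for likeness to Sec61g the 5 genes with the highest r, of which 1 is not reported here. Subunit sizes came from general knowledge in place of the protein lengths first planned.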

Additional observations from a re-analysis of the deposited data

Results flagged for a closer look

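In 80 groups of 6 libraries (levels of the members and named genes, and ratios), 2 had 1 library apart from the rest, with a gap to its nearest neighbour, as a share of the group's range, above Dixon's 95% critical value. Chance gives about 1 in 20 groups. Ssr3 was highest in standard OPC replicate 5, at 275 CPM with the next library at 223 CPM. Ccdc47 was lowest in standard OPC replicate 6, at 74.8 CPM with the next library at 97.5 CPM.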

How the results depend on the processing

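The members called (4 lower and 1 higher) were the same in number with limma-voom, DESeq2, upper-quartile scaling, no filter, filterByExpr, the replicate block and repeated symbols summed. With library size only they were 2 and 5, 0 and 0 when log2 total count was added as a term (0 and 0 also at an unadjusted p under 0.05), and after thinning to the smallest total 2 and 0. Without ribosomal RNA genes they were 4 and 1 and 3 and 1 without the gene span trend, both chosen after seeing the data. The pathway genes (15 lower, 2 higher) were 0 and 25 with library size only, 0 and 0 with the depth term (1 and 4 at an unadjusted p under 0.05) and 4 and 1 after thinning, and those higher were 1 with limma-voom or filterByExpr, 10 with upper-quartile scaling and 6 with the span trend removed. Over all genes, 405 and 5515 of 8938 were called lower and higher with library size only, and 43 and 0 with the depth term. With upper-quartile scaling 1255 and 1136 of 8938 were called. After thinning 624 and 157 of 9693 were called, and 1203 and 847 of 8600 with the span trend removed. Without 1 library each, 4 to 5 members were called lower and 1 to 1 higher, 11 to 16 pathway genes lower and 1 to 3 higher (1 on leaving out replicates 2, 3 or 5 of mild-hypo-OPCs, or 3, 4 or 6 of standard OPCs, when Magt1 lost its call). The difference of small and large members was -0.55 (-0.63 to -0.50 without 1 library each) and -1.33 with the median over genes, which largely followed Sec61g. That of the Sec61g to Sec61a1 ratio was -1.80 (-2.05 to -1.64).

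Values that changed sign were, with library size only, those of Sec61b (0.07), Ssr3 (0.36), Spcs1 (0.060), Spcs2 (0.23), Spcs3 (0.31), Tusc3 (0.11), Rpn1 (0.32) and Get3 (0.17), where the median of all genes was 0.43. With the covariate they were those of Ssr2 (0.14), Ssr3 (0.21), Spcs1 (0.12), Sec11c (0.30), Srp14 (0.22), Krtcap2 (0.24), Ostc (0.15), Tusc3 (0.038), Get4 (0.17), Tmem147 (0.35), Rpn1 (0.12), Bag6 (-0.14) and Ccdc47 (-0.06). With the span trend removed they were Spcs1 (0.030) and Spcs3 (0.07), and after thinning Spcs3 (0.09) and Srpra (-0.09). Beyond what scaling and depth alter by construction, the cause was not tested. Replicate numbers gave no clear pairing of the libraries, since same-numbered libraries had correlations of -0.28 to 0.30 and 1 of 6 correlated best with its own number. Such correlations cannot exclude that libraries share a culture. The replicate block left 4 members lower and 1 higher and moved all calls from 1520 to 1471 lower and from 626 to 572 higher. The planned correction for protein length was not run. Depth limits the precision of low genes, and standard OPC libraries held 37 to 69 counts of Sec61b.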
